A study of Mus musculus with 12 samples.

Results

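Complement and coagulation genes encode the plasma protein cascades that attack microbes and seal damaged vessels, and 47 of them were followed here across brain and liver of mice with and without the vault RNA gene Vaultrc5. The members were given as a list of gene symbols, and each of the 47 was found once among the 55450 genes of the count table. They comprise 19 complement genes, 23 coagulation genes and 5 genes of fibrinolysis, all annotated as protein coding. The series held 12 total RNA libraries of whole tissue from male Mus musculus aged 7 to 9 weeks, 3 for each combination of tissue and genotype. The genotypes were wild type (titled flx, Vaultrc5+/+) and knockout (Vaultrc5-/-), and the labels name no treatment, no other allele and no Cre. The series asked what the absence of this small non-coding RNA does to gene expression. The labels do not say whether libraries with one number come from one animal, nor in so many words that replicates are separate animals, so p-values measure the spread between these libraries, which may be technical.

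Hepatocytes make most of the circulating complement and clotting proteins and secrete them into the blood. Many are inactive precursors that a protease earlier in the cascade cleaves, and others are cofactors, inhibitors or pore subunits. The complement routes meet at C3 and end in a pore built from C5 to C9, and the clotting routes meet at thrombin, which turns fibrinogen into fibrin that plasmin later dissolves. Several members are also acute-phase genes, whose transcription in liver rises with inflammation, and some (tissue factor, thrombomodulin, the plasminogen activators) are made by cells of vessels, brain or other tissues.

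The targeted gene Vaultrc5 was counted 33, 39 and 48 times in wild-type liver, 4, 1 and 4 times in wild-type brain and 0 times in each of the knockout libraries. Library totals were 14844971 to 18567381 counts for the brains and 23247449 to 27155480 for the livers. Levels are given as CPM, counts relative to library sizes that were scaled by TMM over all 12 libraries, and 3 counts, taken as the floor, correspond to 0.123 to 0.148 CPM in brain and 0.149 to 0.169 CPM in liver. The tissue labels fitted their markers: 7 hepatocyte markers without Ttr, which the choroid plexus also makes, summed to 58962 to 97680.2 CPM in liver and 0.697 to 2.44 CPM in brain, and 5 neuron markers to 3026 to 4111 CPM in brain and 25.7 to 34.6 CPM in liver. The library labelled liver knockout 2 stood apart. It was the highest of the 6 liver libraries for 23 of the 46 members tested and for 21.1% of all genes tested. The acute-phase gene Saa1, chosen after its values were seen, stood there at 1864 CPM. In wild-type liver 2, the library of the same number, Saa1 stood at 214 CPM, and in the remaining livers at 11.3 to 23.6 CPM. Sums of 8 macrophage markers were 169 to 230.5 CPM in every other liver library and 407 CPM in knockout liver 2. Liver fold changes that rest on this library are given with and without it. Brain libraries differed in choroid plexus and fat cell markers, whose sums are given with F5, Serpind1, Cfd and C3.

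The 47 genes held 3.46%, 3.70% and 3.49% of all counts in the wild-type livers and 3.47%, 4.84% and 3.62% in the knockout livers. In brain they held 0.0149%, 0.0129% and 0.0176% of the counts of the wild-type libraries and 0.0151%, 0.0149% and 0.0170% of those of the knockouts. Knockout liver 2 lay above the other 5 liver libraries, and the 6 brain libraries overlapped between genotypes. The 3 fibrinogen chains alone took 1.78% of counts in knockout liver 2 and at most 1.06% in the other 5 liver libraries. Without the fibrinogen chains and C3, the other 43 members held 2.04% of counts in knockout liver 2 and 1.70% to 1.87% in the other livers.

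Between tissues, most members were liver transcripts with few or no counts in brain. Of the 46 members tested between wild-type brain and wild-type liver, 41 were higher in liver and 2 were higher in brain by edgeR's quasi-likelihood test (adjusted p under 0.05). Over all 18850 genes tested, 34.7% were called higher in liver and 43.9% higher in brain. The median log2 ratio of brain over liver was -12.67 over the members, or -12.03 with genes at 0 in brain set at the floor, and 0.21 over all genes. Of the 46, 30 passed the count filter through liver alone, so that a difference was built in. Among the 16 members that also had enough counts in brain, 11 were higher in liver, 2 higher in brain and 3 not called, with a median log2 ratio of -3.39. In bulk tissue, fewer cells that make a transcript and less of it per cell cannot be told apart. The knockout libraries gave the same 41 and 2 members, against 35.2% and 43.5% of all genes, with a median of -12.13 over the members. Cfd was not tested in either genotype.

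**Figure D1:**
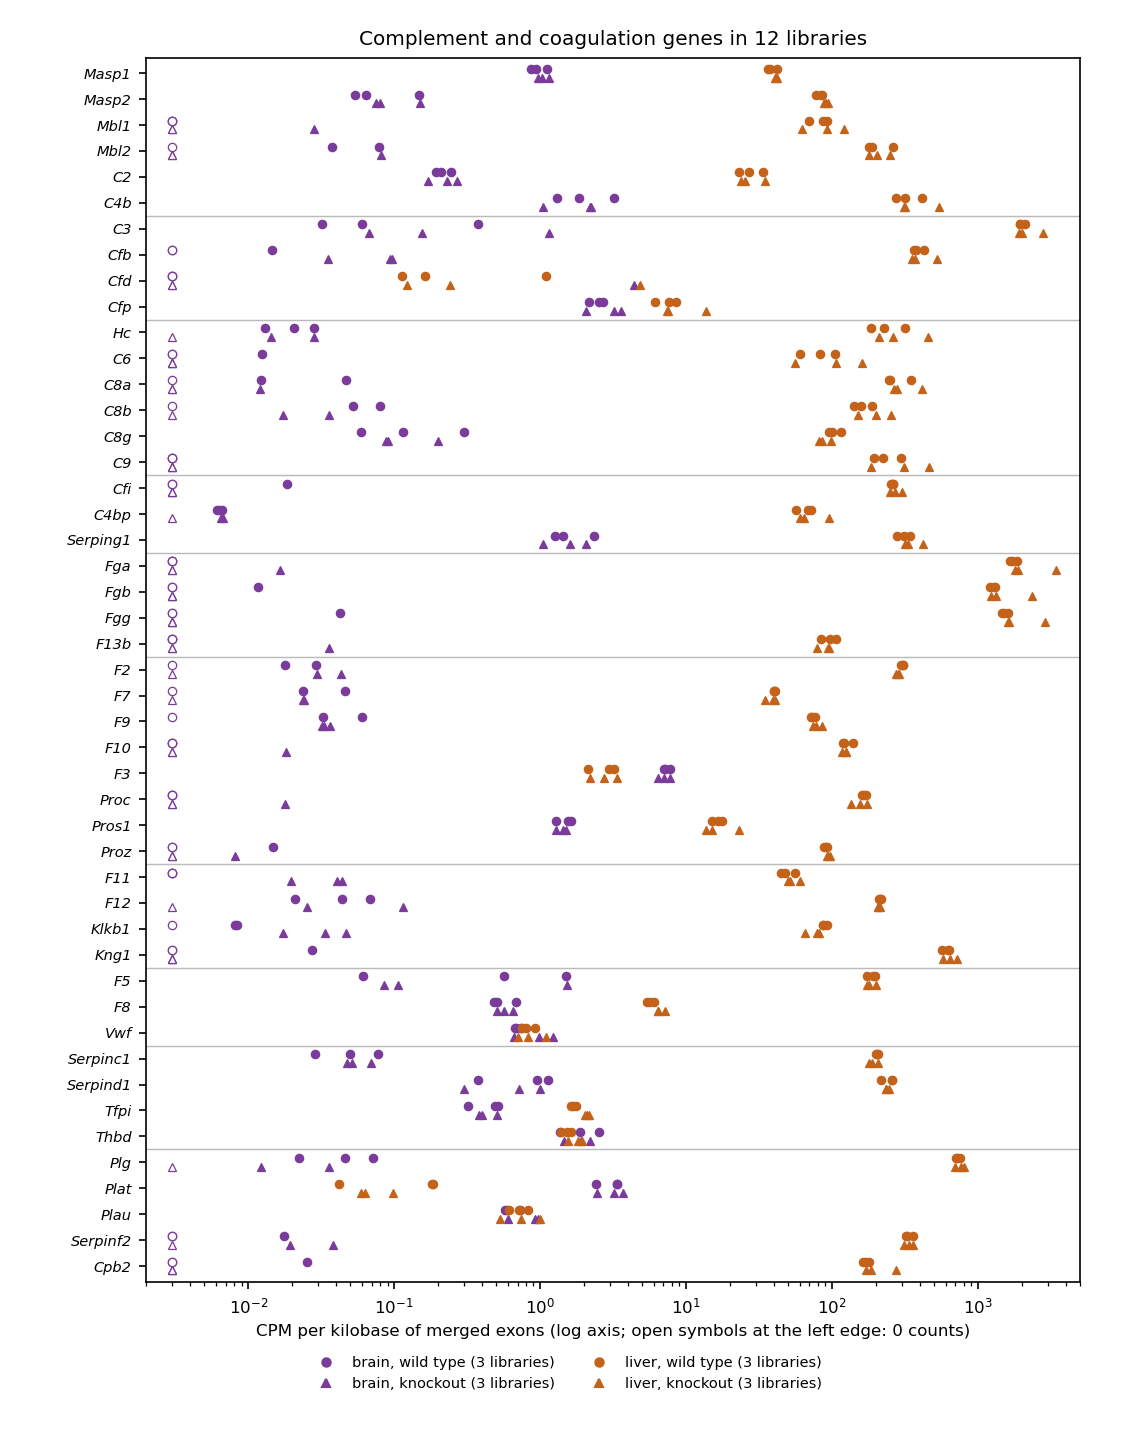
Levels of the 47 genes in each of 12 libraries, as CPM per kilobase of merged exons on a log axis, grouped by role (horizontal lines), with circles for wild type, triangles for knockout, purple for brain and orange for liver. Open symbols at the left edge are libraries with 0 counts. Most genes lie far to the right in liver, while F3 and Plat lie higher in brain and Vwf, Thbd and Plau at similar levels in both tissues.

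Set per kilobase of exon, the most abundant members in wild-type liver were C3, the convergence point of complement, at 2004 ± 94.9 CPM per kilobase (SD, n = 3), and the fibrinogen chains Fga at 1739 ± 86.7, Fgg at 1529 ± 81.0 and Fgb at 1267 ± 51.6. Plg (plasminogen) followed at 725 ± 26.4, Kng1 (kininogen) at 610.1 ± 36.7 and Cfb (factor B of the alternative pathway) at 388 ± 32.0 CPM per kilobase. The ranges over 3 libraries of these first 7 genes did not overlap their next neighbour in the order. Serpinf2, C4b, Serping1 and F2 (337 to 303 CPM per kilobase) came next, and each overlapped its next neighbour. The lowest members in liver were Plau at 0.714, Cfd at 0.458 and Plat at 0.135 CPM per kilobase. In wild-type brain the order was led by F3 (tissue factor, the cell-surface starter of clotting) at 7.31 ± 0.411, Plat (tissue plasminogen activator) at 3.06 ± 0.556 and Cfp (properdin) at 2.45 ± 0.280 CPM per kilobase, followed by C4b at 2.12 ± 0.984 and Thbd at 1.93 ± 0.586. F3 did not overlap the next gene, whereas Plat, Cfp, C4b and Thbd overlapped.

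The genes that open the classical and lectin routes were all higher in liver. Masp1, a protease of the lectin pathway, stood at 369, 415 and 359 CPM in wild-type liver and at 8.49, 9.22 and 10.9 CPM in wild-type brain, a log2 ratio of brain over liver of -5.31 ± 0.15 (SE). Its partner Masp2 stood at 283, 276 and 255 CPM in liver and at 0.177, 0.492 and 0.213 CPM in brain (-9.80 ± 0.28). Masp1 thus kept a brain level well over the floor while Masp2 lay near it. The mannose-binding lectins, which carry these proteases to sugar surfaces, were at or near 0 in brain: Mbl1 had 0 counts in the 3 wild-type brains and was at least 3066-fold higher in liver against a floor of 3 counts over the group, and Mbl2 had 3 brain counts and a liver over brain ratio of 5379 (95% counting interval 1840.1 to 26085). C4b, which is cleaved to form the C3 convertase, had a measurable brain level of 10.5, 7.38 and 18.3 CPM beside 1811, 2358 and 1569 CPM in liver (-7.30 ± 0.42). Reads of C4b were split with its paralog C4a: the expected counts of both together were whole numbers in 12 of 12 libraries, within 0.02, while those of C4b were not. C2, the other convertase subunit, stood at 0.752, 0.943 and 0.811 CPM in brain and 105, 131 and 88.6 CPM in liver (-7.00 ± 0.22).

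C3 stood at 10044, 10869 and 10005 CPM in the wild-type livers and at 0.310, 0.164 and 1.92 CPM in the wild-type brains, a log2 ratio of -13.64 ± 0.90. The 3 wild-type brains held 56 C3 counts in all, most of them in replicate 3, and without that library the log2 ratio was -15.42. Cfb had 1 count in the 3 wild-type brains and 62617 in the livers, a ratio of 77459 (13902 to 3059521). Cfp, made by myeloid cells, differed far less: 10.6, 14.7 and 13.3 CPM in liver and 4.69, 3.73 and 4.36 CPM in brain (-1.59 ± 0.18, adjusted p = 0.000102). Cfd (factor D, the fat cell protease that cleaves factor B) was counted 23 times in wild-type liver and 0 times in wild-type brain.

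The terminal pathway, whose products assemble into the membrane attack pore, took the smallest share of brain counts among the complement roles. C9, its ring-forming last subunit, had 0 counts in all 6 brain libraries and was at least 14281-fold higher in wild-type liver, where it stood at 568, 753 and 494 CPM. Hc, which encodes complement C5, had 9 counts in the 3 wild-type brains and 1420.1, 1967 and 1151 CPM in the livers (-13.46 ± 0.39). C6 had 1 brain count, a ratio of 20768 (3727 to 820360). C8a had 5, C8b 8 and C8g 17 brain counts, with log2 ratios of -13.69 ± 0.48, -11.75 ± 0.41 and -9.28 ± 0.34. C8a and C8b, whose chains with C8g make up the C8 protein, are neighbours on chromosome 4 (C8b 104766317-104804548, C8a 104815679-104876398 in the GRCm38 build). Of the inhibitors, Cfi (which cleaves C3b and C4b) and its cofactor C4bp had 1 and 3 wild-type brain counts, with ratios of 40482 (7265 to 1598994) and 10409.6 (3562 to 50481). Serping1, the inhibitor of the C1 proteases, kept a brain level of 5.40, 2.95 and 3.33 CPM beside 727, 790.4 and 651 CPM in liver (-7.53 ± 0.28).

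Fibrinogen combined high liver levels with almost no brain counts. Fga stood at 5151, 5528 and 5027 CPM in the wild-type livers and had 0 counts in the wild-type brains, which makes it at least 123048-fold higher in liver. Fgb had 275238 liver counts and 1 brain count, a ratio of 340478 with a 95% counting interval of 61108 to 13448195. Fgg had 182355 liver counts and 2 brain counts, a ratio of 112789 (31223 to 931344). The intervals cover counting error alone and are wide because 1 or 2 counts set them. F13b, the carrier subunit of the fibrin-crosslinking factor XIII, had 0 brain counts and was at least 5676-fold higher in liver.

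Among the vitamin K dependent and extrinsic factors, 7 of 8 were higher in liver and F3 was higher in brain. F2 (prothrombin) stood at 1402, 1360.0 and 1417 CPM in liver with 5 brain counts in all (-14.14 ± 0.38). F10 and Proc (protein C) had 0 wild-type brain counts and were at least 8111-fold and 9663-fold higher in liver, and Proz had 2, a ratio of 17609 (4874 to 145406). F9 had 6 brain counts (-11.10 ± 0.35), and F7 had 3, a ratio of 1759 (602 to 8533). Pros1 (protein S, also a ligand of TAM receptors) kept 5.26, 6.35 and 6.62 CPM in brain beside 61.7, 71.7 and 67.1 CPM in liver (-3.45 ± 0.13). F3 stood at 17.7, 18.1 and 19.6 CPM in the wild-type brains and at 8.10, 7.47 and 5.35 CPM in the livers, a log2 ratio of 1.41 ± 0.18 (adjusted p = 0.000167). In the knockout libraries F3 was higher in brain by 1.34 ± 0.18.

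The contact factors F11, F12, Klkb1 (prekallikrein) and Kng1 had at most 6 counts in any brain library and mean levels of 110.4 to 1983 CPM in wild-type liver. F11 had 0 wild-type brain counts and was at least 2599-fold higher in liver, and F12 had 6 (-12.15 ± 0.23). Klkb1 and Kng1 had 2 each, with ratios of 16409 (4542 to 135498) and 69659 (19283 to 575204). Kng1 shared reads with its paralog Kng2, since their summed expected counts were whole in 12 of 12 libraries, and Klkb1 overlaps Gm45753 on the same strand. The cofactors were less uniform. F5, the cofactor of factor X, stood at 1284, 1417 and 1469 CPM in liver and at 4.20, 0.451 and 11.1 CPM in brain (-8.05 ± 0.97). Without wild-type brain 3 the log2 ratio of F5 was -9.29, and the sums of 8 choroid plexus markers in the 3 wild-type brains were 39.6, 5.45 and 63.8 CPM. F8, the cofactor of factor IX, stood at 56.2, 53.3 and 59.5 CPM in liver and at 4.78, 5.04 and 6.79 CPM in brain (-3.34 ± 0.16). Vwf, the endothelial carrier of F8, stood at 14.7, 12.0 and 12.8 CPM in liver and at 10.9, 11.9 and 10.8 CPM in brain and was not called (-0.23 ± 0.13, adjusted p = 0.154). The summed level of 8 endothelial markers was 215 to 258 CPM in wild-type liver and 105 to 112 CPM in wild-type brain.

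The inhibitors split in the same way. Serpinc1 (antithrombin) had 31 wild-type brain counts and 1767, 1698 and 1732 CPM in liver (-11.91 ± 0.32), and Serpind1 (heparin cofactor II) stood at 2.08, 0.820 and 2.48 CPM in brain and 561, 563 and 471 CPM in liver (-8.21 ± 0.38). Tfpi, the inhibitor of tissue factor, stood at 9.57, 8.87 and 9.22 CPM in liver and at 2.70, 2.79 and 1.75 CPM in brain (-1.92 ± 0.22). Thbd (thrombomodulin, the endothelial thrombin receptor) was not called, with 6.02, 5.18 and 5.66 CPM in liver and 6.95, 9.47 and 5.12 CPM in brain (0.36 ± 0.24, adjusted p = 0.206).

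In fibrinolysis the precursor was a liver transcript and Plat, which activates it, was higher in brain. Plg stood at 2667, 2798 and 2607 CPM in the wild-type livers and at 0.265, 0.0820 and 0.171 CPM in the brains (-13.89 ± 0.32). Plat, which converts plasminogen to plasmin, stood at 21.1, 15.1 and 21.1 CPM in the wild-type brains and at 1.13, 1.15 and 0.262 CPM in the livers, a log2 ratio of 4.50 ± 0.42 (adjusted p = 2.92e-05). The knockout libraries gave 5.38 ± 0.28 for Plat. Plau (urokinase, the other activator) was low in both tissues, at 1.69, 1.44 and 1.94 CPM in liver and 1.37, 1.72 and 1.41 CPM in brain, and was not called (-0.16 ± 0.27, adjusted p = 0.592). Serpinf2 (antiplasmin) and Cpb2 (the carboxypeptidase that slows fibrinolysis) each had 1 wild-type brain count, with ratios of 55201 (9907 to 2180381) and 19602 (3518 to 774285). The calls of Vwf, Thbd and Plau depended on the scaling. With library totals in place of TMM all 3 were called higher in brain, at 0.61 for Vwf, 1.19 for Thbd and 0.67 for Plau, while the median of all genes moved from 0.21 to 1.05. Of the 26 members with over 3 wild-type brain counts, 8 had a ratio that moved by over 1.5 times when 1 library was left out. Besides C3 and F5 these were Masp2 (-10.45), C8b (-12.55), C8g (-10.20) and F9 (-12.04) without wild-type brain 2, C8a (-15.22) without wild-type brain 3 and F2 (-14.84) without wild-type brain 1, each further from 0 and still called.

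Of 67 further genes of these pathways in the table (receptors, regulators, collagen-like recognition proteins and other serpins, a list of names written for this comparison), 59 were tested between the wild-type tissues. Of these, 45 were called higher in liver and 10 higher in brain, against 34.7% and 43.9% of all genes. Of the 59, 22 passed the count filter through liver alone and 4 through brain alone. Among those with the smallest adjusted p-values in liver were C1s1, a C1 protease (-9.73 ± 0.18), and Vtn, the terminal-pathway inhibitor vitronectin (-6.21 ± 0.15). In brain they belonged to the complement regulators Csmd3, Csmd2 and Csmd1, which are 3 of the 4 that passed through brain alone, so that the filter fixed their direction. They had 13, 2 and 7 counts in the 3 wild-type livers, and their brain over liver ratios were 329 (95% counting interval 192 to 618), 2538 (702 to 20958) and 1311 (636 to 3262).

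In liver, no member was called between knockout and wild type. Of 46 tested, 0 had an adjusted p under 0.05 by edgeR, against 0% of the 15329 genes tested, and DESeq2 called 0 members. The smallest adjusted p among the members was 0.992. At an unadjusted p under 0.05 there were 2 members, F8 and Tfpi, against 3.50% of all genes. With the replicate number as a block there were 4 of 46 (F8, C8g, Tfpi and C9), against 6.41% of all genes. After adjustment the blocked fit called 2 of the 15329 genes, 0 of them members. The CPM of the genotypes did not overlap for 5 members (F8, Tfpi and Masp2 higher in the knockout, Klkb1 and F2 lower), against 9.62% of all genes.

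**Figure D2:**
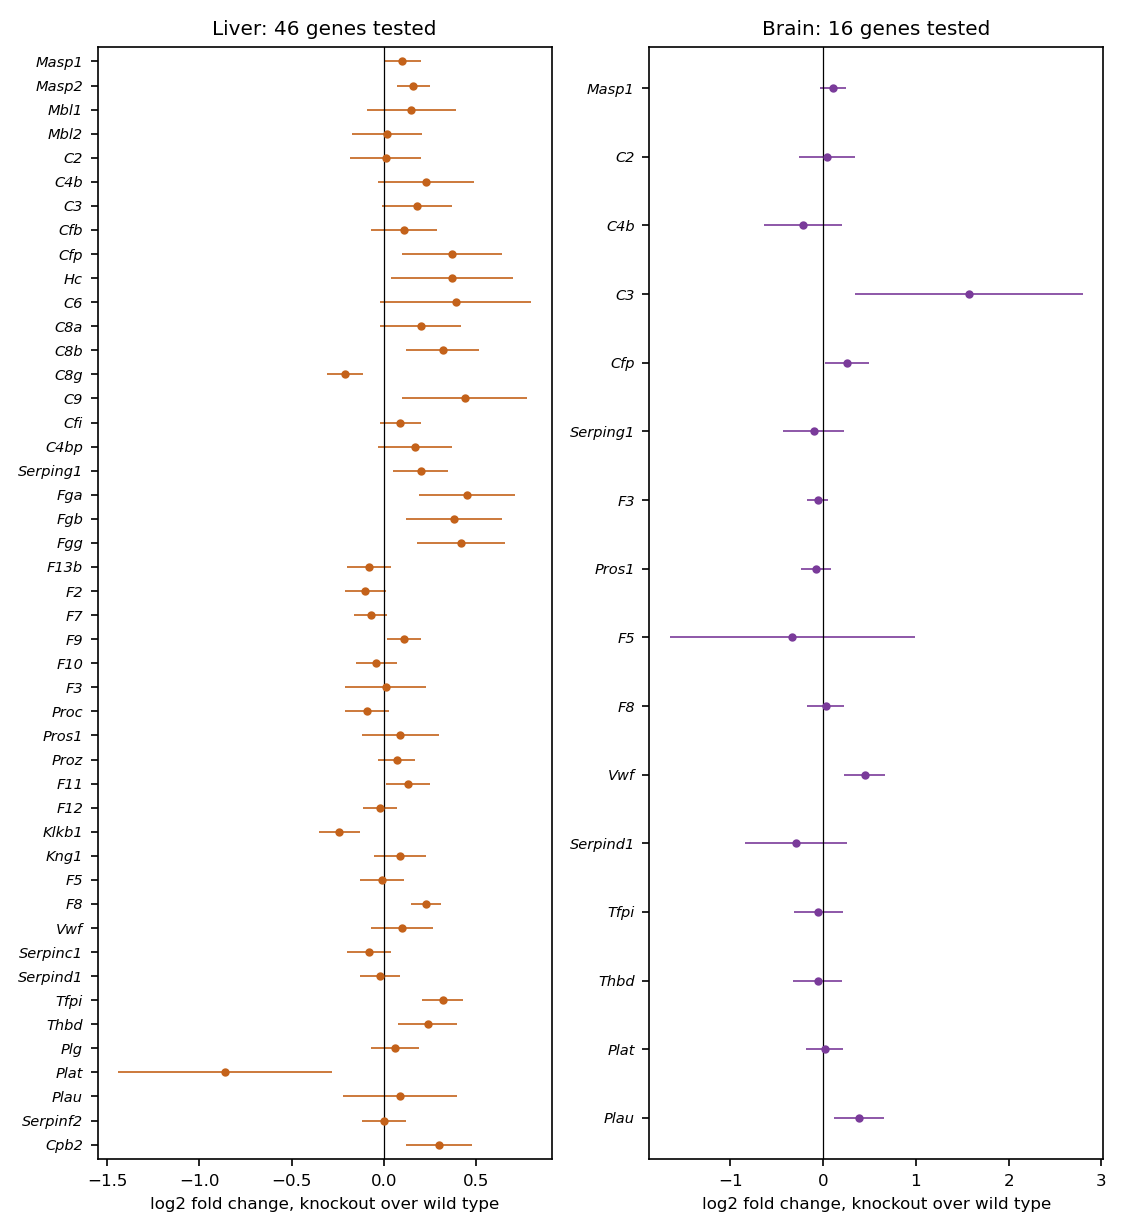
Log2 fold changes of knockout over wild type for the members tested in liver (46 genes) and in brain (16 genes). Points are edgeR estimates from 3 libraries a group, bars are 1 standard error, and none passed an adjusted p of 0.05. The liver values lie between -0.86 and 0.45 and the brain values between -0.33 and 1.57, with C3 and F5 in brain showing the widest bars.

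F8 stood at 56.2, 53.3 and 59.5 CPM in the wild-type livers and at 70.6, 63.9 and 63.1 CPM in the knockout livers, a log2 fold change of 0.23 ± 0.08 (unadjusted p = 0.0183, adjusted p = 0.992). Tfpi stood at 9.57, 8.87 and 9.22 CPM and at 11.4, 11.9 and 11.0 CPM (0.32 ± 0.11, unadjusted p = 0.0240, adjusted p = 0.992). All 3 knockout values lay over all 3 wild-type values for both genes, by small margins, and neither passed adjustment over all genes. Without knockout liver 2 their log2 fold changes were 0.25 and 0.28. The summed endothelial markers were 215 to 258 CPM in the wild-type livers and 246 to 273 CPM in the knockout livers, and their part in these values was not tested.

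Klkb1 went the other way, at 458, 486 and 452 CPM in the wild type and 413, 340.2 and 427 CPM in the knockout (-0.24 ± 0.11, edgeR unadjusted p = 0.0749). C8g, the small chain of C8, stood at 171, 149 and 143 CPM and at 148, 128 and 122 CPM (-0.21 ± 0.10), and Masp2 at 283, 276 and 255 CPM and at 291, 303 and 309.5 CPM (0.16 ± 0.09). The C8g groups overlapped, since knockout 1 lay above wild type 3, but in each same-numbered pair the knockout was lower, and the blocked edgeR fit gave -0.21 ± 0.08 (unadjusted p = 0.0317, adjusted p = 0.765). Without the block, the adjusted p of each of the 3 genes was 0.992.

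The median log2 fold change over the 46 members was 0.10, with 34 positive, and over all genes tested it was 0.01. Without knockout liver 2 the median was 0.01, with 24 of 47 members positive, in a fit that kept its same-numbered partner; the blocked fit of all 6 libraries gave 0.09, with 34 of 46 positive. Within pairs, the median log2 ratio of knockout over wild type was 0.03 in pair 1, 0.17 in pair 2 and 0.05 in pair 3, with 24, 32 and 30 of 46 members higher in the knockout. With all 6 libraries 10 of the 46 members had a log2 fold change over 0.3 (C6, C8b, C9, Cfp, Cpb2, Fga, Fgb, Fgg, Hc and Tfpi). Without knockout liver 2, 1 of the same 46 did (Thbd, at 0.32). Cfd, which passed the count filter only in the second of these fits, is not counted.

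**Figure D3:**
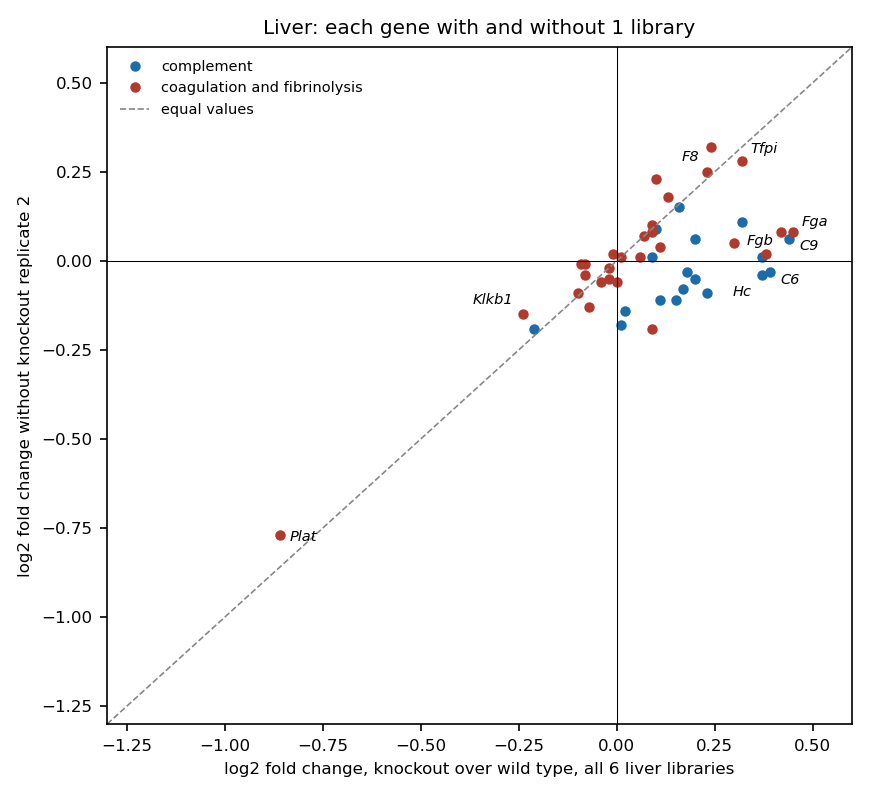
Log2 fold change of knockout over wild type in liver for 46 genes, with all 6 libraries (x axis) and without knockout replicate 2 (y axis), with complement genes in blue and coagulation and fibrinolysis genes in red. Fga, Fgb, C9, C6 and Hc lie far to the right of the dashed line of equal values and near 0 on the y axis, whereas F8, Tfpi, Klkb1 and Plat lie near the line.

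The fibrinogen chains were among the members over 0.3 with all libraries but not without knockout liver 2. Fga stood at 5151, 5528 and 5027 CPM in the wild-type livers and at 5633, 10280.0 and 5416 CPM in the knockout livers. Fgb stood at 4603, 4918 and 4965 CPM and at 4699, 8933 and 5059.8 CPM, and Fgg at 3165, 3384 and 3050.0 CPM and at 3438, 5987 and 3336 CPM. In knockout liver 2 each chain was well above all other libraries, and the remaining 5 libraries lay close together. The log2 fold changes with all libraries were 0.45 ± 0.26 for Fga, 0.38 ± 0.26 for Fgb and 0.42 ± 0.24 for Fgg, and without knockout liver 2 they were 0.08, 0.02 and 0.08. Within pairs 1, 2 and 3 the log2 ratios were 0.13, 0.90 and 0.11 for Fga, 0.03, 0.86 and 0.03 for Fgb and 0.12, 0.82 and 0.13 for Fgg. Each chain was thus higher in the knockout in 3 of 3 pairs, and by far the most in pair 2. The chains moved together: per kilobase, the ratio of Fga over Fgg was 1.13, 1.14 and 1.15 in the wild-type livers and 1.14, 1.19 and 1.13 in the knockout livers, and that of Fga over Fgb ran from 1.28 to 1.52. The genes lie side by side on chromosome 3 of GRCm38, Fgg at 83007724-83015049 and Fga at 83026076-83033627 on the plus strand and Fgb at 83040141-83049863 on the minus strand.

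Because the fibrinogen chains, C9 and C3 were highest in the same library, the 250 bases before their RefSeq start sites (GRCm38.p6) are shown, 5′ to 3′ along each gene's strand. The set was chosen after the values were seen. Capitals mark matches, on either strand, to letters bound by liver and acute-phase factors: GTTAAT for HNF1, TTGCNNAA for C/EBP and TTCNNNGAA for STAT.
Fga (chr3:83025903-83026152, plus strand): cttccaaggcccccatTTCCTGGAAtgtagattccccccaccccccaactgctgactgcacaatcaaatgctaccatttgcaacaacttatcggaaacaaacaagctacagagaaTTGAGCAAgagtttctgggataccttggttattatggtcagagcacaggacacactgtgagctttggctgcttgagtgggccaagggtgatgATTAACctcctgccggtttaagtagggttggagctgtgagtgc
Fgb (chr3:83049864-83050113, minus strand): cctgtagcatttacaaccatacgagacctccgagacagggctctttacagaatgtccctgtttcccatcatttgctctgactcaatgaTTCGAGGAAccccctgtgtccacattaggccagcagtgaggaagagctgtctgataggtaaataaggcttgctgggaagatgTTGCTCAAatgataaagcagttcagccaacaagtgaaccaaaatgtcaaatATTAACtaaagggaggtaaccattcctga
Fgg (chr3:83007474-83007723, plus strand): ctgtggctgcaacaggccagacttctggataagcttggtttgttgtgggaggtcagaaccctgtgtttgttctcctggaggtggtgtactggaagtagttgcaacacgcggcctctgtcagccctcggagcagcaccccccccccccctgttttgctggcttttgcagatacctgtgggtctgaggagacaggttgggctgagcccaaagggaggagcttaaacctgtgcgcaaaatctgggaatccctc
C9 (chr15:6445096-6445345, plus strand): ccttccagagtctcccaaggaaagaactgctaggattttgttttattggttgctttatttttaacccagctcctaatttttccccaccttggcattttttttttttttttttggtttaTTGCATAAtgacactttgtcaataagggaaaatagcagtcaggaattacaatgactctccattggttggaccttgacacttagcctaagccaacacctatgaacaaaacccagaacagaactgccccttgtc
C3 (chr17:57228137-57228386, minus strand): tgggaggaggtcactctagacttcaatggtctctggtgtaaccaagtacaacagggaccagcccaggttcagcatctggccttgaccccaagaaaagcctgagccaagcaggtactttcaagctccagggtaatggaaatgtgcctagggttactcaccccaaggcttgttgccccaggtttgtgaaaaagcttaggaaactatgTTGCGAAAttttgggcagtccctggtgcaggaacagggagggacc
Fga and Fgb each held a match to all 3 sets of letters, with the HNF1 letters starting 43 and 29 bases before the start site, the C/EBP letters 135 and 80 bases and the STAT letters 234 and 162 bases before it. The Fgg stretch held none of them, although its level followed the other chains. C9 and C3 each held a C/EBP match, 132 and 45 bases before the start. The RefSeq starts of Fga and C9 lie downstream of their GENCODE starts (83026076 and 6445327). The HNF1 letters of Fga thus lie inside the gene as GENCODE draws it.

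Promoter windows from 250 bases before to 50 after the start were at hand for 34 of the 47 members. The HNF1 half-site letters occurred in 10 of these 34 members, and in 7.1% of all 32851 promoters. The C/EBP letters occurred in 9 members and 10.8% of all promoters, the STAT letters in 6 members and 8.3%, and the HNF4 letters CAAAGTCCA in 0 members and 0.475%. These are matches of letters and say nothing on binding.

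The terminal pathway held 0.488% of counts in knockout liver 2 and 0.254% to 0.368% in the other livers. The ratio of its highest to its lowest share, 1.92 with that library and 1.45 without it, was the highest of the complement roles in both cases. C9 stood at 568, 753 and 494 CPM in the wild-type livers and at 800.4, 1179.7 and 469 CPM in the knockout livers, C6 at 293, 374 and 213 CPM and at 379, 569 and 197 CPM, and Hc at 1420.1, 1967 and 1151 CPM and at 1635, 2869 and 1315 CPM. The genotypes overlapped widely, since for Hc replicate 2 was the highest and replicate 3 the lowest in each genotype, and likewise for C9 and C6. The log2 fold changes without a block were 0.44 ± 0.34 for C9, 0.39 ± 0.41 for C6 and 0.37 ± 0.33 for Hc. Without knockout liver 2 they were 0.06, -0.03 and -0.04, so that C6 and Hc changed sign, in a fit that kept wild-type liver 2. The blocked edgeR fit of all liver libraries gave 0.36 ± 0.15, 0.30 ± 0.14 and 0.32 ± 0.14, with adjusted p of 0.775, 0.803 and 0.775. Within same-numbered pairs, Hc was higher in the knockout in 3 of 3, and C9 and C6 in pairs 1 and 2. The ratio of C6 over C9 per kilobase stayed between 0.302 and 0.371. C8g did not follow its partner in knockout liver 2. C8b was highest there at 644 CPM, while C8g stood at 128 CPM within a liver range of 122 to 171 CPM. C8g over C8b per kilobase was 0.805, 0.532 and 0.613 in wild-type liver and 0.495, 0.338 and 0.546 in knockout liver.

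By role, knockout liver 2 was the highest library for 3 of 3 tested genes of C3 and the alternative pathway, 5 of 6 of the terminal pathway, 3 of 3 complement inhibitors and 3 of 4 of fibrinogen and factor XIII, against 0 of 4 contact factors and 0 of 3 cofactors and carrier. C3 stood at 14418 CPM there and at 9876 to 10869 CPM in the other livers, C4b at 3084 CPM against 1569 to 2358, and Cpb2 at 445 CPM against 264 to 299.5. The other roles lay between, with 3 of 6 genes that open the classical and lectin routes, 3 of 8 vitamin K dependent and extrinsic factors, 1 of 4 coagulation inhibitors and 2 of 5 genes of fibrinolysis. F2, Klkb1, F13b, Proc, Serpinc1 and Vwf were lowest in that library, 6 of 46 members, while 24.5% of all genes tested were. F2 stood at 1262 CPM there and at 1295 to 1417 CPM elsewhere, so that Fgb over F2 per kilobase was 8.53 there and 3.96 to 4.63 in the other libraries. The acute-phase gene Hp stood at 4703 CPM there, at 1830.0 CPM in wild-type liver 2 and at 1092 to 1322 CPM in the remaining livers. The macrophage marker sum was also highest in knockout liver 2. The sum of 8 hepatocyte markers was lowest there, at 61658 CPM against 77734 to 102200 CPM. Their part in these levels was not tested.

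**Figure D4:**
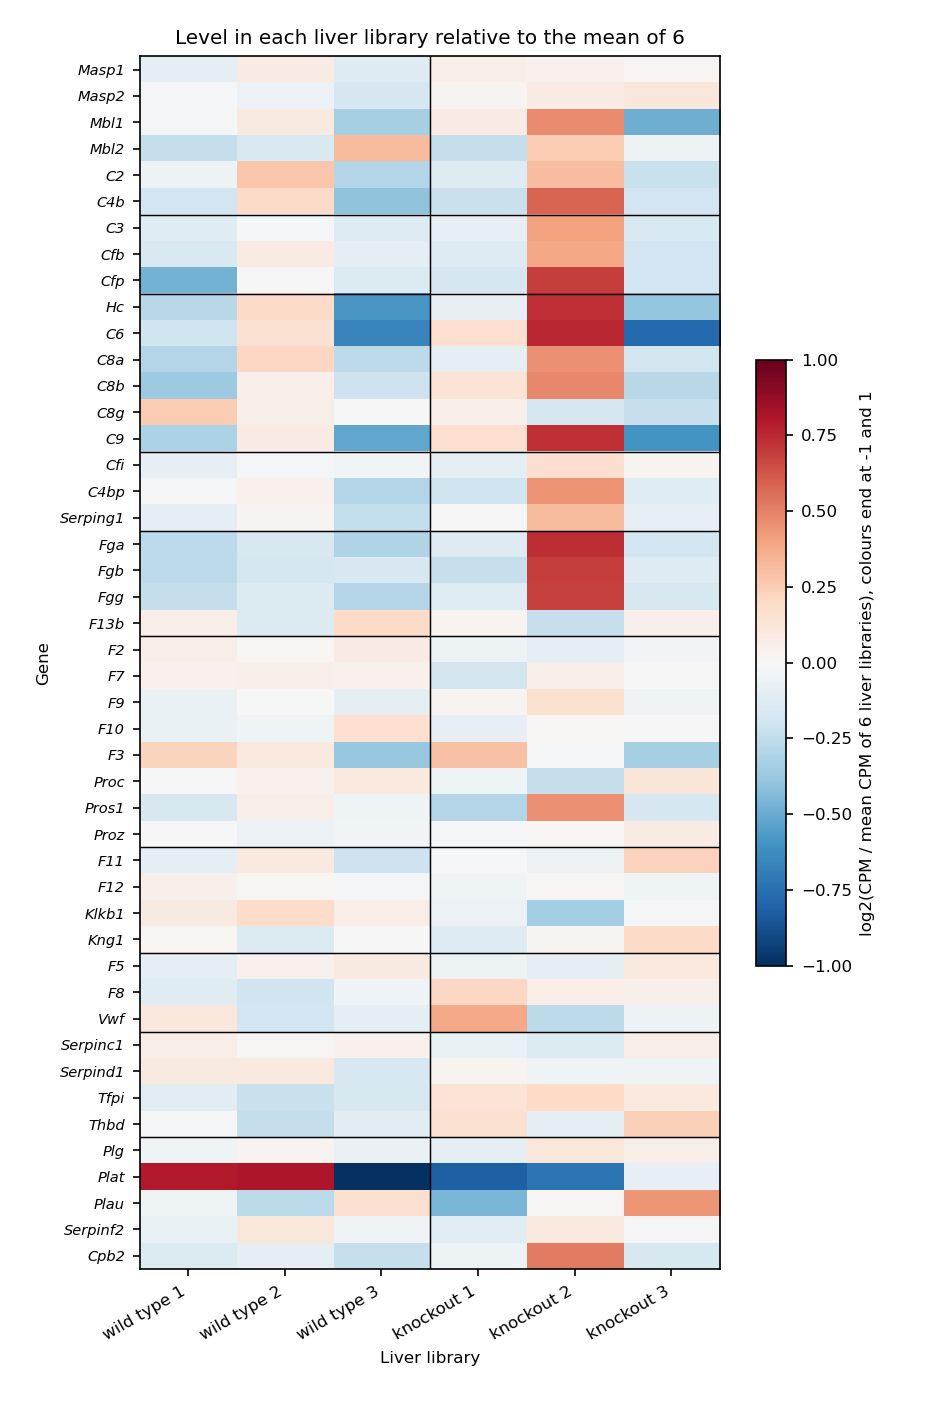
Log2 of each liver library's CPM over the mean of the 6 liver libraries for 46 genes (all but Cfd), grouped by role (horizontal lines) with wild type left and knockout right of the vertical line; colours end at -1 and 1. Knockout 2 is red for the fibrinogen chains and most complement genes, and pale or blue for F2, Klkb1, F13b and Vwf.

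Members at low counts in liver were measured less precisely. Plat stood at 1.13, 1.15 and 0.262 CPM in the wild-type livers and at 0.368, 0.394 and 0.617 CPM in the knockout livers, the lowest log2 fold change of the 46 (-0.86 ± 0.58), resting on 48 wild-type counts in all. Cfd did not pass the count filter over all liver libraries and stood at 1.01, 0.149 and 0.105 CPM in the wild type and at 4.47, 0.113 and 0.224 CPM in the knockout. Knockout liver 1, the library with the most Cfd, also had the highest sum of 4 fat cell markers (6.31 CPM, against 0.394 to 1.01 CPM in the other livers). The part of fat cells was not tested. Of the further pathway genes, 55 were tested in liver, 0 were called by edgeR and 4 had an unadjusted p under 0.05, against 3.50% of all genes. These 4, named after their values were seen, were higher in the knockout, the endothelial and myeloid receptor Cd93 by 0.31 ± 0.09, the C5a receptor C5ar1 by 1.22 ± 0.41, the complement receptor Cr2 by 1.09 ± 0.40 and the integrin chain Itgam by 1.04 ± 0.38 (log2). Without knockout liver 2 the values were 0.29 ± 0.11, 0.77 ± 0.38, 1.16 ± 0.49 and 0.77 ± 0.40, and the unadjusted edgeR p stayed under 0.05 for Cd93 (0.0343) but not for C5ar1 (0.0825), Cr2 (0.0514) or Itgam (0.0972).

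In brain, 16 of the 47 members had enough counts to be tested and none was called between knockout and wild type. By edgeR 0 of 16 had an adjusted p under 0.05, against 0% of 18075 genes, and 0 had an unadjusted p under 0.05, against 0.675% of all genes; DESeq2 also called 0. The CPM of the genotypes did not overlap for 0 members, against 4.23% of all genes. The median log2 fold change was -0.01 over the members, with 8 positive and 8 negative, and -0.01 over all genes. Of the 31 members not tested, 27 had at most 6 counts in any brain library, and the other 4 were Masp2, Cfd, C8g and Serpinc1. With no count filter, 46 members were tested (all but C9) and 0 were called, with Cfb and F11 at an unadjusted p under 0.05, against 0.941% of all genes. These 2 were at or near the floor of 3 counts in most brain libraries.

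Vwf had the smallest unadjusted p. It stood at 10.9, 11.9 and 10.8 CPM in the wild-type brains and at 10.7, 19.7 and 15.7 CPM in the knockout brains (0.45 ± 0.22, unadjusted p = 0.0800, edgeR adjusted p = 1.00). Knockout brains 2 and 3 lay above all wild-type libraries and knockout brain 1 below them. Plau stood at 1.37, 1.72 and 1.41 CPM and at 1.43, 2.29 and 2.17 CPM (0.39 ± 0.27), and Cfp at 4.69, 3.73 and 4.36 CPM and between 3.57 and 6.17 CPM in the knockout (0.26 ± 0.24). Both genes overlapped between genotypes. Masp1 stood at 8.49, 9.22 and 10.9 CPM and at 10.2, 11.3 and 9.57 CPM (0.11 ± 0.14), and Serpind1 at 2.08, 0.820 and 2.48 CPM and at 2.17, 0.661 and 1.58 CPM (-0.29 ± 0.55). The 3 libraries with the most Serpind1 were wild type 1, wild type 3 and knockout 1.

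C3 had the largest estimate in brain, and it moved widely with the libraries used. It stood at 0.310, 0.164 and 1.92 CPM in the wild-type brains and at 0.346, 0.793 and 5.96 CPM in the knockout brains, a log2 fold change of 1.57 ± 1.23. Replicate 3 was the highest in each genotype and the groups overlapped. Without knockout brain 3 the log2 fold change was -0.49, and without wild-type brain 3 it was 3.32.

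Cfd was found in brain in that same library only. It had 0 counts in the other 5 brain libraries, which allows up to 3 counts each, and 90 counts (4.06 CPM) in knockout brain 3. All 4 fat cell markers were above 0 in knockout brain 3, with a sum of 3.34 CPM, and all 4 were at 0 in the other 5 brain libraries. The part of fat cells in the Cfd and C3 counts was not tested.

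F5 varied widely between the brain libraries. It stood at 4.20, 0.451 and 11.1 CPM in the wild-type brains and at 11.4, 0.793 and 0.632 CPM in the knockout brains (-0.33 ± 1.32). The sum of 8 choroid plexus markers was 39.6, 5.45 and 63.8 CPM and 80.2, 7.01 and 8.94 CPM in the same libraries. The 3 libraries with the most F5 were the 3 with the highest marker sums, and the same 3 held the most Serpind1. How much choroid plexus a dissection held was not tested as a source of F5 or Serpind1. Leaving out single libraries turned the direction of the F5 estimate, which ran from -2.87 to 0.86.

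**Figure D5:**
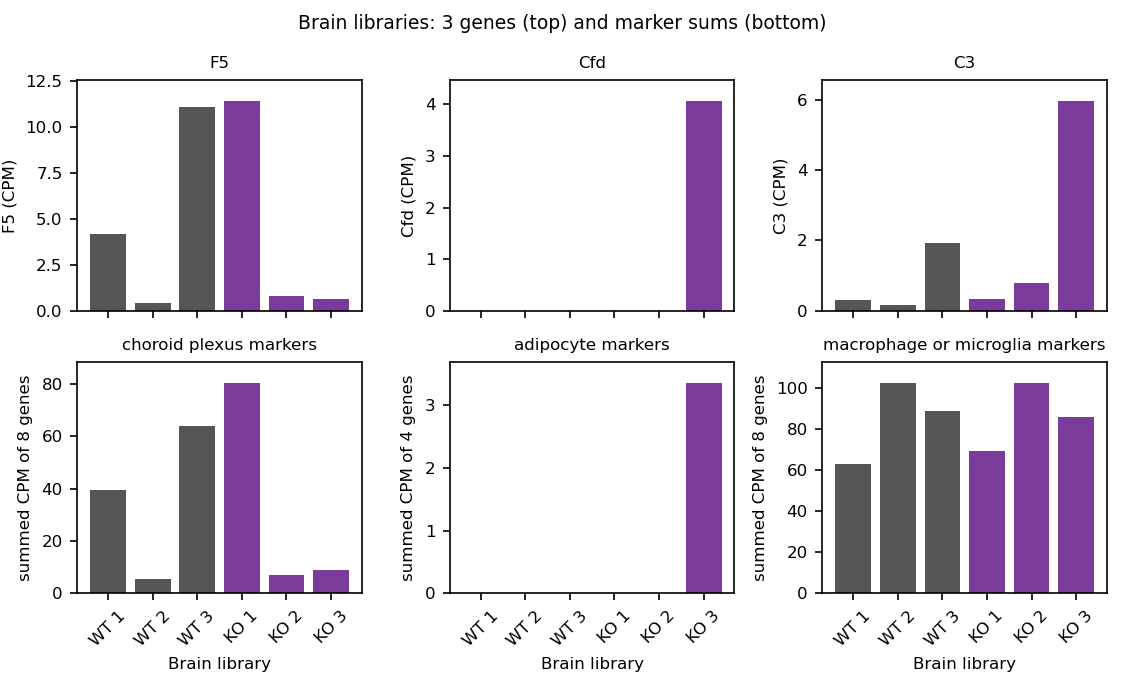
CPM of F5, Cfd and C3 (top) and summed CPM of choroid plexus (8 genes), fat cell (4 genes) and macrophage or microglia (8 genes) markers (bottom) in the 6 brain libraries, with wild type (WT) in grey and knockout (KO) in purple. F5 is high in the 3 libraries with high choroid plexus sums, and Cfd and fat cell markers appear in knockout 3 alone.

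The members with steady brain levels had small differences with narrow errors. F3 stood at 17.7, 18.1 and 19.6 CPM in the wild type and 16.1, 19.7 and 17.7 CPM in the knockout, and Plat at 21.1, 15.1 and 21.1 CPM and 20.1, 15.3 and 23.0 CPM. The genotypes overlapped for both genes. The remaining members tested (C4b, C2, Serping1, Pros1, F8, Thbd and Tfpi) overlapped as well. Of the further pathway genes, 38 were tested in brain and 0 were called by edgeR, with 0 at an unadjusted p under 0.05.

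The knockout effect in liver was then compared with that in brain in a model over all 12 libraries. For 0 of 47 members did the effects differ at an adjusted p under 0.05 by edgeR's interaction test, against 0% of 20141 genes. Unadjusted edgeR p-values under 0.05 were found for 3 members: Cfb at 0.00205, Klkb1 at 0.00225 and F11 at 0.00844, against 2.43% of all genes. Plg, F13b and Kng1 followed. All 6 lay at or near the floor in brain. Cfb, for example, had 0, 0.0410 and 0 CPM in the wild-type brains and 0.0988, 0.264 and 0.271 CPM in the knockout brains, which sum to 1 and 14 counts, and in liver it stood at 1026, 1199 and 1065 CPM and at 1041, 1490.1 and 997 CPM. No fold is given at such counts. The adjusted p was 1.00 for each of the 6.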

How the data were processed

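Ribosome-depleted, stranded, single-end total RNA libraries of 12 tissue samples were analysed. The authors deposited expected counts per gene, not normalized. Per the submitters' processing notes cutadapt, STAR and the mm10 build were used; the counting tool and its strand setting are not given in the sources used here. All 55450 identifiers matched GENCODE M21 (GRCm38), which gave coordinates and exon lengths; promoters are from RefSeq (GRCm38.p6). The members and all gene lists were chosen with earlier results of these data known.

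Counts were rounded to whole numbers and tested with edgeR 4.0.16 (R 4.3.3; TMM, filterByExpr with minimum count 10 and minimum total 15, quasi-likelihood test), with Benjamini-Hochberg adjustment over all genes tested and a threshold of 0.05. Each comparison was fitted on its own 6 libraries and the interaction on all 12. The fits were tested on simulated data. CPM used TMM over all 12 libraries. Standard errors (SE) are of log2 fold changes. All members could be named; log2 ratios, or ratios and bounds at 3 brain counts or fewer, are given for members tested between tissues, and within tissues for the 6 with the smallest p, and others, named for knockout liver 2 or for marker sums, were chosen after their values were seen. A further pathway gene that this rule would name is not reported here. Alternatives were DESeq2 1.42.0 (size factors and Wald test), library totals, no filter, a mean of at least 1 CPM, a threshold of 0.1, a replicate block and each library left out.

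The titles number the replicates 1 to 3 in each group. Deviations of same-numbered liver libraries correlated at 0.278, 0.274 and 0.351, so liver was treated as paired in the blocked fit. Expected counts of Kng1, Klkb1, C4b, C2 and Cfb were not whole in some library, as where reads are shared with overlapping or similar genes. Without a stated strand setting, reads of Serpinc1, Masp2, Plg, C2, F5, Fgg and Hc cannot be told from those of overlapping genes on the opposite strand. Intervals and floors cover counting error only, since reads that carry no molecular identifier may be copies.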

Additional observations from a re-analysis of the deposited data

How the results depend on the processing

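No alternative made a call among the members in liver or brain between genotypes, or in the interaction, and between tissues 42 to 46 members were called in place of 43. With library totals for TMM, 5 members were higher in brain in each genotype in place of 2, and in wild type Vwf (0.61) and Plau (0.67) changed direction and Thbd (1.19) passed the threshold, as the median of all genes moved from 0.21 to 1.05; relative to that median these 3 genes barely moved. With the replicate number as a block, 0 members were called in liver, in brain and in the interaction, and 43 between tissues in each genotype, so that the block changed no call. Same-numbered brain libraries correlated at 0.563 and 0.583 in pairs 1 and 2 but at 0.015 in pair 3, so brain was not treated as paired throughout. Same-numbered libraries of different tissues correlated at -0.018 to 0.055. The blocked brain fit put 2 members, C3 (1.46 ± 0.39) and Vwf (0.42 ± 0.16), and 406 genes at an unadjusted p under 0.05. Without the block these counts were 0 and 122. In brain, leaving out each library in turn gave log2 fold changes of -0.49 to 3.32 for C3, -0.67 to 0.07 for Serpind1 and -2.87 to 0.86 for F5. DESeq2's Wald test called 10 of all genes in liver, 0 of them members. The count filter limits the brain comparison to 16 members, and with no filter 0 of 46 were called.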
